A study of Drosophila melanogaster with 35 samples.

Results

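The regions described here are peaks of the RNA-binding profile of CLAMP that lie in the protein-coding sequence (CDS) of genes on the autosomes of Drosophila melanogaster. A peak was taken when it lay on a main arm of chromosome 2, 3 or 4 and its midpoint fell, on its own strand, in a CDS of a protein-coding gene. Left out were peaks whose midpoint also fell in a 5′ UTR, or in an exon of any non-coding RNA shorter than 500 nt. This gave 212 peaks in 196 genes, of 3235 peaks in 5 lists. The profile came from individual-nucleotide crosslinking and immunoprecipitation (iCLIP), in which ultraviolet light fixes a protein to the RNA it touches and the bound fragments are sequenced. It was made for chromatin, nucleoplasm and cytoplasm of S2 cells, a male line, and of Kc cells, a female line, with no treatment or mutation named for any library. Of 35 libraries, 24 were precipitated with a CLAMP antibody, 4 for each line and fraction, and 11 had no antibody, 2 for each except 1 for Kc chromatin. Each list analysed stands for 1 line and fraction, without read counts and with a score of 0 in every peak, so the depth behind a peak is unknown and there are no replicates. The cytoplasm of S2 cells was not analysed here. Each sex is represented by 1 cell line, so sex and line cannot be told apart, and no peak list of the no-antibody libraries was set beside these peaks.

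CLAMP has zinc fingers that recognise GA-rich repeats in DNA, and it helps to bring the dosage compensation complex to the male X chromosome. It is also an RNA-binding protein with roles in splicing. In an mRNA the CDS is the stretch read by the ribosome, from start to stop codon, with an untranslated region (UTR) on each side. In chromatin, RNA is attached to the genes it comes from and much of it is still unspliced, so a fragment there may come from a precursor in which introns flank each coding exon. S2 and Kc cells both come from embryos and express genes of hemocytes, the blood cells that lay down much of the fly's basement membrane.

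Most of the CDS peaks were in chromatin of S2 cells. S2 chromatin held 174 of them in 162 genes, Kc chromatin 16 in 16 genes, S2 nucleoplasm 3 in 3 genes and Kc nucleoplasm 19 in 19 genes, and Kc cytoplasm, a list of 8 peaks, held 0. Of 11749 autosomal protein-coding genes, those of S2 chromatin are 1.38%, those of Kc chromatin 0.136%, those of S2 nucleoplasm 0.0255% and those of Kc nucleoplasm 0.162%. The chromatin and nucleoplasm lists differ in length, from 391 peaks for S2 nucleoplasm to 1416 for S2 chromatin. On the autosomal arms S2 chromatin had 670 peaks, Kc chromatin 188, S2 nucleoplasm 33 and Kc nucleoplasm 84. CDS peaks were 26.0% of these arm peaks in S2 chromatin (Wilson 95% interval 22.8% to 29.4%) and 8.51% in Kc chromatin (5.31% to 13.4%). They were 9.09% in S2 nucleoplasm (3.14% to 23.6%) and 22.6% in Kc nucleoplasm (15.0% to 32.6%). Intervals and tests here treat peaks as independent and cover counting error only.

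Among peaks in mature mRNA sequence, the CDS held about as many peaks as the UTRs in the longest list. CDS peaks were 174 of 335 autosomal mRNA exon peaks in S2 chromatin, or 51.9% (46.6% to 57.2%), beside 27 peaks in 5′ UTRs and 134 in 3′ UTRs. In Kc chromatin they were 16 of 43, or 37.2% (24.4% to 52.1%), beside 2 and 25. The odds ratio of S2 over Kc chromatin, computed here and below with 0.5 added to each of the 4 counts, was 1.80 (95% interval 0.943 to 3.44), with an adjusted p of 0.247 by a two-sided Fisher's exact test with Benjamini-Hochberg adjustment over 13 tests. In nucleoplasm the share was 3 of 8 in S2 cells, or 37.5% (13.7% to 69.4%), and 19 of 39 in Kc cells, or 48.7% (33.9% to 63.8%), with an odds ratio of 0.669 (0.153 to 2.93) and an adjusted p of 1 by the same exact test. Chromatin over nucleoplasm gave an odds ratio of 1.70 in S2 cells (0.437 to 6.60; adjusted p of 1 by the exact test) and 0.631 in Kc cells (0.264 to 1.51; adjusted p of 0.968). None of the 4 comparisons of CDS share passed the threshold of 0.05, and the intervals leave a more than 2-fold difference in the odds possible in each of them.

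Set against how much annotated sequence each class covers, CDS peaks were sparser than 3′ UTR peaks in all 4 lists. The autosomal CDS covers 18.9 Mb, 5′ UTRs 3.65 Mb and 3′ UTRs 6.13 Mb. S2 chromatin had 9.21 peaks per Mb of CDS, 7.39 per Mb of 5′ UTR and 21.9 per Mb of 3′ UTR. Kc chromatin had 0.847 per Mb of CDS, 0.547 per Mb of 5′ UTR and 4.08 per Mb of 3′ UTR. In S2 nucleoplasm the densities were 0.159, 0.547 and 0.490 per Mb for CDS, 5′ UTR and 3′ UTR, and in Kc nucleoplasm 1.01, 1.37 and 2.45 per Mb. Density of CDS peaks thus ran in the order S2 chromatin, Kc nucleoplasm, Kc chromatin, S2 nucleoplasm. These densities were not tested.

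**Figure D1:**
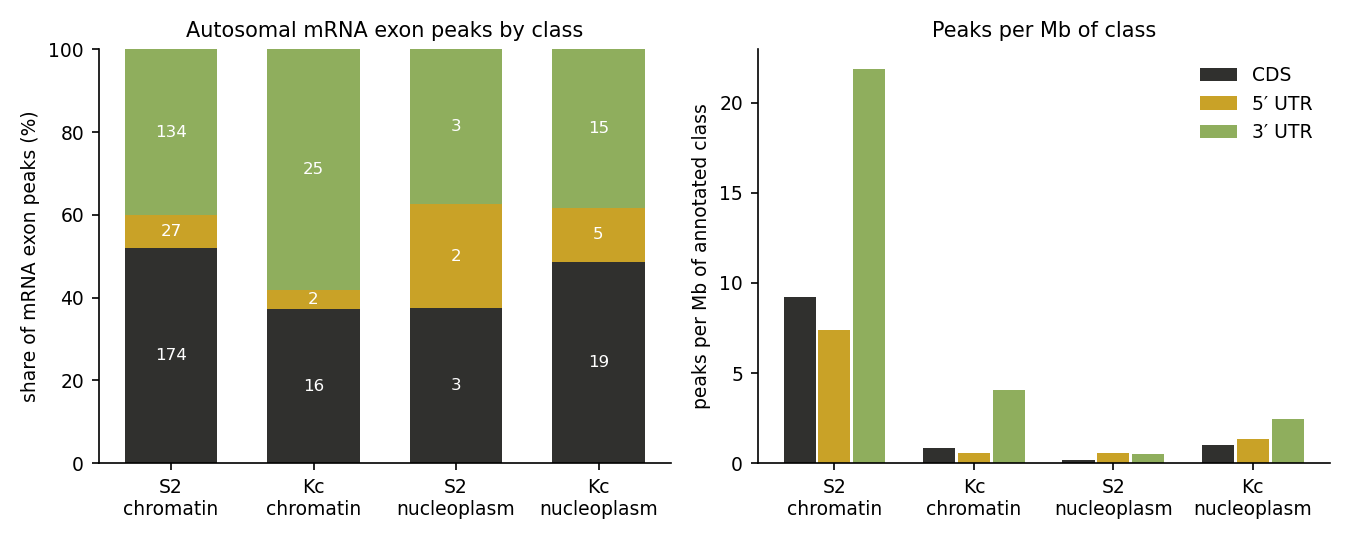
Autosomal mRNA exon peaks of each list. Left, the share of peaks (%) in CDS, 5′ UTR and 3′ UTR, with the number of peaks written in each bar; right, peaks per Mb of annotated sequence of each class. CDS peaks make up 51.9% of the S2 chromatin bar and 37.2% of the Kc chromatin bar, and the 3′ UTR has the highest density in every list except S2 nucleoplasm, where the 5′ UTR does.

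The peaks of S2 chromatin were spread evenly along the coding sequence. With each CDS divided into 3 parts of equal length, the first, middle and last part held 58 peaks each, 33.3% apiece (26.8% to 40.6%). The last 10% of the CDS held 20 peaks, or 11.5% (7.57% to 17.1%), and the first 10% held 19, or 10.9% (7.10% to 16.4%), both near their share of the sequence. In Kc chromatin the 3 parts held 5, 2 and 9 of 16 peaks, in Kc nucleoplasm 4, 5 and 10 of 19, and all 3 peaks of S2 nucleoplasm were in the last part. The share in the first part did not pass the test between S2 and Kc chromatin, with an odds ratio of 1.05 (0.362 to 3.04) and an adjusted p of 1 by Fisher's exact test. Between Kc chromatin and Kc nucleoplasm it was 1.65 (0.382 to 7.10; adjusted p of 1 by the exact test).

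**Figure D2:**
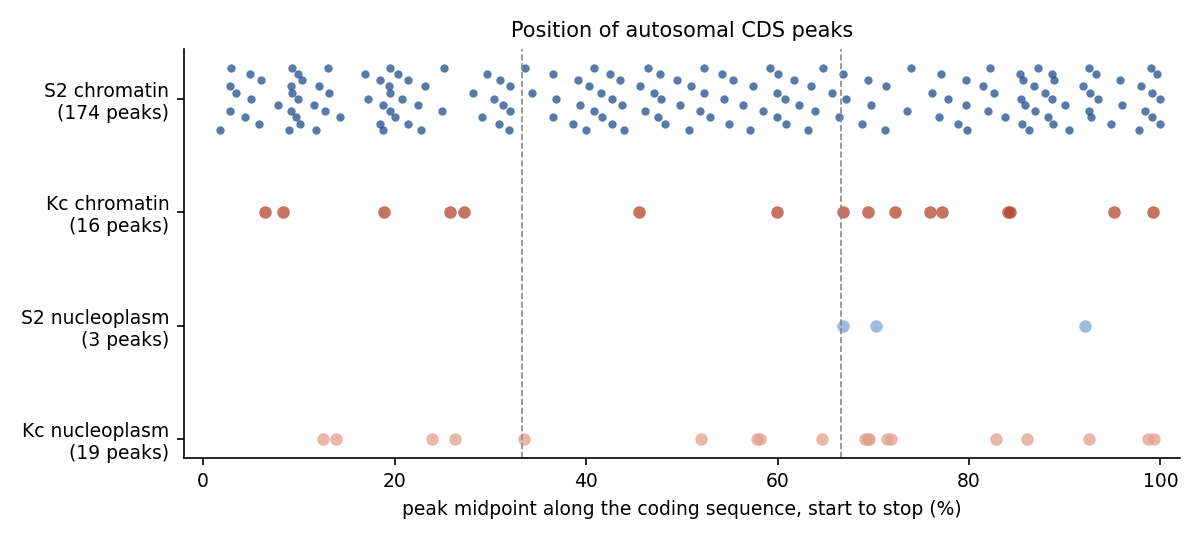
Midpoint of each autosomal CDS peak as percent of the length of its coding sequence, from start to stop codon, by list. Points of S2 chromatin are moved up and down only to keep them apart, and dashed lines divide the CDS into 3 equal parts, which hold 58 peaks each in S2 chromatin and 5, 2 and 9 in Kc chromatin.

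Peaks were placed among coding exons much as bases are. Of the 165 S2 chromatin peaks in genes whose coding sequence has more than 1 exon, 16 were in the first coding exon, or 9.70% (6.06% to 15.2%). That exon held 13.5% of the CDS bases of the peak's transcript, as a mean over the peaks. Shares of bases by coding exon and near junctions, here and below, are such means and not shares of pooled bases. Internal coding exons held 99, or 60% of the peaks and 57.4% of the bases, and the last coding exon 50, or 30.3% of the peaks and 29.2% of the bases. In Kc chromatin 1 of 16 peaks was in a first coding exon and in Kc nucleoplasm 3 of 18. The odds ratio for the first coding exon was 1.14 (0.198 to 6.57) for S2 over Kc chromatin and 0.429 (0.0558 to 3.29) for Kc chromatin over Kc nucleoplasm, each with an adjusted p of 1 by the exact test. Where a gene has several coding transcripts, the midpoint was coding in every one of them for 123 of 136 S2 chromatin peaks, or 90.4% (84.3% to 94.3%). The 13 others include both peaks of RpL3 and peaks of Msp300, Hrb98DE, Sfmbt and Cdep, where the midpoint lies outside the CDS of some other coding transcripts of the gene.

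Few peaks came near an exon edge, and almost none ran into an intron. In S2 chromatin 14 of 165 midpoints were within 30 nt of a coding exon junction, or 8.48% (5.12% to 13.7%). As a mean over the peaks, 13.4% of the CDS bases of their transcripts lie that near. Over all lists it was 16 of 202, or 7.92% (4.93% to 12.5%), beside 13.8% of bases. The S2 chromatin interval holds its share of bases, and the interval over all lists lies below its share. No comparison with bases or positions was tested here. A peak extended past a splice edge of its exon in 2 of 212 cases, or 0.943% (0.259% to 3.37%). At 7.95% of the CDS positions of the same genes, a peak of the same width would have done so. Both cases were in S2 chromatin, a 42 nt peak of CG34126 and a 28 nt peak of Fkbp39, which codes for an FK506-binding prolyl isomerase. All others were inside exon sequence to their last base. Near a junction were 8.48% of S2 chromatin peaks and 6.25% of Kc chromatin peaks, 1 of 16. The odds ratio was 1.39 from the counts as they are and 0.989 (0.170 to 5.75) with 0.5 added to each, so its direction is not settled (adjusted p of 1 by Fisher's exact test), and Kc chromatin over Kc nucleoplasm gave 1.13 (0.106 to 12.01; adjusted p of 1).

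The stop codon was reached more often than the start. In S2 chromatin 8 of 174 peaks extended past the last coding base, or 4.60% (2.35% to 8.81%), against 1.50% of positions at which a peak of that width would do so. These were RpS7, Polr2L, Fib, Alas, RNASEK, CG3511, CG42495 and CG33494, of which all but Polr2L and RpS7 are named only because they met this count. Fib codes for fibrillarin, the rRNA methyltransferase, Alas for the first enzyme of heme synthesis and Polr2L for a small subunit of RNA polymerase II. The coding sequences of Polr2L (201 nt), CG33494 (258 nt) and RNASEK (285 nt) were the 3 shortest of all S2 chromatin genes. Only RpL8, a protein of the large ribosomal subunit, had a peak past the first coding base, 0.575% of the list (0.102% to 3.18%) against 1.36% of positions. No peak of the other lists passed either end, and with 16, 3 and 19 peaks in them a share like that of S2 chromatin was not detectable. The rule treats the ends unequally, since a midpoint also in a 5′ UTR was left out and one also in a 3′ UTR was kept. With CDS taken before 5′ UTR, S2 chromatin had 176 CDS peaks and not 174. The shares of positions do not allow for this, and these shares were not tested.

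CDS peaks of S2 chromatin were less often at least 30 nt wide than those of Kc chromatin, and those of Kc chromatin more often than those of Kc nucleoplasm. Widths ran from 17 to 113 nt with a median of 33.5 nt in S2 chromatin, 30 to 84 nt with a median of 41 nt in Kc chromatin, 29 to 36 nt with a median of 31 nt in S2 nucleoplasm and 23 to 49 nt with a median of 32 nt in Kc nucleoplasm. At least 30 nt wide were 114 of 174 CDS peaks in S2 chromatin, or 65.5% (58.2% to 72.2%), and 16 of 16 in Kc chromatin (80.6% to 100%). The odds ratio was 0.0574 (0.00338 to 0.972), and Fisher's exact test with Benjamini-Hochberg adjustment gave an adjusted p of 0.0244, which passed the threshold; with chromosome X added the adjusted p was 0.0535. In Kc cells, 16 of 16 CDS peaks in chromatin and 11 of 19 in nucleoplasm were that wide, an odds ratio of 24.4 (1.28 to 466) with an adjusted p of 0.0244 by the exact test. Over whole lists, 73.9% of S2 chromatin peaks, 95.9% of Kc chromatin peaks and 91.2% of Kc nucleoplasm peaks were at least 30 nt wide, beside 65.5%, 100% and 57.9% of their CDS peaks. The narrowest CDS peak of Kc chromatin was 30 nt wide, exactly the cut used. No other cut was tried, so both calls that passed may depend on this value. The part of peak calling in these widths was not tested.

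Within S2 chromatin, 114 of 174 CDS peaks and 84 of 161 UTR peaks were at least 30 nt wide, 65.5% and 52.2%. The odds ratio of CDS over UTR was 1.74 (1.12 to 2.69), with an unadjusted p of 0.0146 and an adjusted p of 0.0631 by the exact test, which missed the threshold. The median UTR peak was 30 nt wide in S2 chromatin, 40 nt in Kc chromatin, 25 nt in S2 nucleoplasm and 31.5 nt in Kc nucleoplasm. In each list mRNA peaks of both kinds were narrower at the median than the list as a whole, whose medians were 39, 58, 52 and 58.5 nt.

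**Figure D3:**
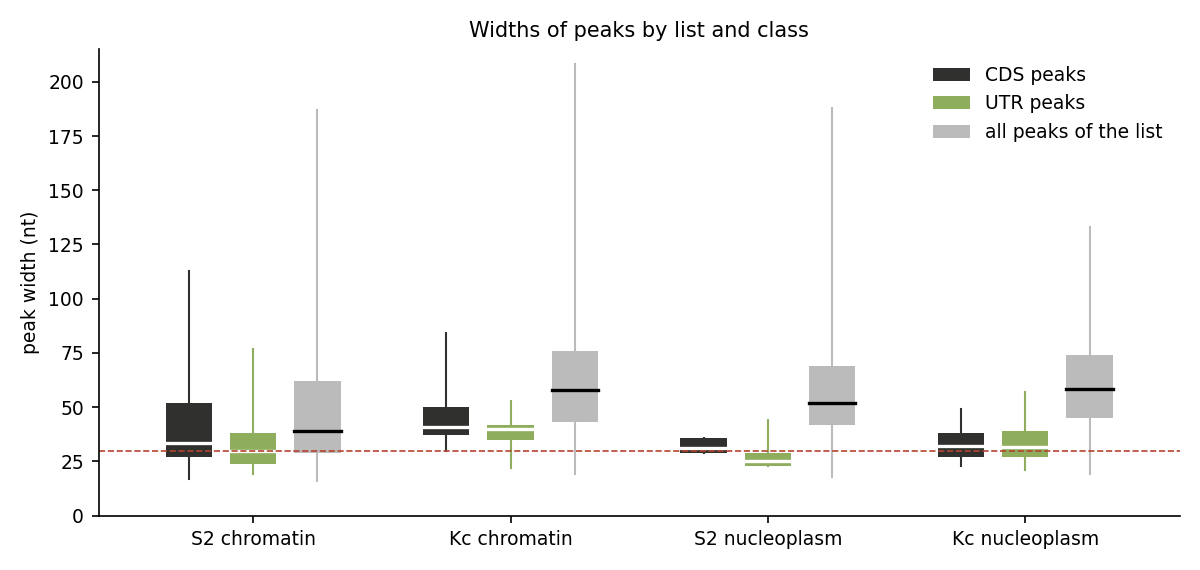
Peak width in nt by list, for autosomal CDS peaks, autosomal UTR peaks and all peaks of the list. Boxes run from the first to the third quartile with the median as a line, thin lines run from the narrowest to the widest peak, and the dashed line is at 30 nt; all 16 CDS peaks of Kc chromatin are at or above it and 11 of 19 of Kc nucleoplasm are.

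The widest S2 chromatin peak was the 113 nt peak over the stop codon of RpS7, a protein of the small ribosomal subunit, at 3R 30206585 to 30206697 on dm6. The next was a 74 nt peak in the first coding exon of Map205, a microtubule-associated protein. Peaks of 70 nt were found in Nlp, a nucleoplasmin-like histone chaperone, and in the ribosomal protein genes RpL5 and RpL8. Csk, a kinase that restrains Src, and Itpr, the calcium channel of the endoplasmic reticulum (ER) gated by inositol trisphosphate, had peaks of 68 nt. Fntb, a subunit of protein farnesyltransferase, had 67 nt and CG13868 65 nt, and Etfb, part of the mitochondrial electron transfer flavoprotein, 64 nt. A width is the authors' call and does not measure how much RNA was bound.

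The genes of S2 chromatin CDS peaks were read against 22 lists of genes with shared roles, which were chosen with earlier results of these data known. The shares and intervals below do not allow for this choice, so a high share or rank is a description and not independent support. Of the 162 genes, 45 were on at least 1 list, and of all 11749 autosomal protein-coding genes 762 were. The share to read each list against is the 1.38% of all autosomal protein-coding genes with a CDS peak. Which genes these cells transcribe, and how strongly, was not measured here, so the part of RNA abundance in these counts was not tested.

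By share of genes, the extracellular matrix and hemocyte list held CDS peaks most often. The list has 15 autosomal genes, and 8 of them had a CDS peak in S2 chromatin, 53.3% (30.1% to 75.2%). They carried 12 peaks, 6.90% of all CDS peaks of S2 chromatin, and the genes of the list hold 0.408% of the CDS bases. Set against CDS bases the order differs. Ribosomal protein genes had 9.77% of the peaks on 0.218% of the bases, and ER genes 2.87% on 0.140%. All 3 laminin genes on the list, which code for the chains of the main cross-shaped protein of basement membranes, had 2 peaks each: LanA, LanB1 and LanB2. The ferritin light chain gene Fer2LCH, whose product stores iron in the secretory pathway, also had 2. One peak each was found in vkg, a collagen IV chain, Ppn (papilin), Tig (tiggrin, an integrin ligand) and Hml (hemolectin, a clotting protein of hemocytes). Genes of the list without a CDS peak were Col4a1, Fer1HCH, Ndg, NimC1, Pxn, SPARC and eater, and none of these 7 had a UTR peak in S2 chromatin. In Kc chromatin, S2 nucleoplasm and Kc nucleoplasm 0 of the 15 had a CDS peak, which allows a share of up to 20% when a count of 0 is read as at most 3, as for the counts of 0 below.

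Cytosolic ribosomal protein genes carried the most CDS peaks of any list. In S2 chromatin 13 of 78 had one, 16.7% (10.0% to 26.5%), with 17 peaks in all, 9.77% of the CDS peaks on 0.218% of the CDS bases. RpS7, RpL3, RpL4 and RpL5 had 2 each, and those with 1 included RpL8, RpL10, RpL10Ab, RpL21, RpL27A, RpS12 and the acidic stalk proteins RpLP1 and RpLP2. Kc chromatin had CDS peaks in RpS18 and RpL15, 2 of 78, or 2.56% (0.706% to 8.88%), beside the 0.136% of all genes, and Kc nucleoplasm had 1, in RpL41. None of these 3 was among the 13 of S2 chromatin, which are 16.7% of the list, so 3 genes are too few to read an overlap from. Proteins of the mitochondrial ribosome gave 0 of 62 in each list, which allows a share of up to 4.84%. Introns of many ribosomal protein genes hold small nucleolar RNAs. Of the 13 S2 chromatin genes, RpL3, RpL27A and RpS12 had a peak of a small non-coding RNA inside the gene in the same list, 3 of 13 beside 0 of the other 65 ribosomal protein genes. RpL3, RpL4, RpL5, RpS7 and RpS12 had one in Kc chromatin, 5 of 13 beside 5 of the other 65. Over all autosomal protein-coding genes, 0.289% had a small RNA peak inside in S2 chromatin and 0.238% in Kc chromatin. No test was made of these counts. RpL15 had both a CDS peak and a small RNA peak in Kc chromatin, the only gene of that list to do so.

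Translation factors followed, with 5 of 47 genes in S2 chromatin, 10.6% (4.63% to 22.6%). These were eEF1alpha1, which brings aminoacyl-tRNA to the ribosome and had 2 peaks, its exchange factor eEF1beta, the initiation factor eIF1A, and eIF3c and eIF3f1 of the scaffold initiation complex eIF3. eIF3c also had a CDS peak in Kc chromatin, the only gene of the list that did, and another eIF3 subunit, eIF3b, had one in Kc nucleoplasm. Aminoacyl-tRNA synthetases gave 0 of 31 in all 4 lists, which allows a share of up to 9.68%.

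Genes of ER translocation and folding had CDS peaks in 4 of 21 genes of S2 chromatin, 19.05% (7.67% to 40.0%). These peaks were 2.87% of the CDS peaks, and the genes of the list hold 0.140% of the CDS bases. CaBP1, a protein disulfide isomerase, had 2, and the lectin chaperones Calr (calreticulin) and Cnx99A (calnexin) and the ER form of Hsp90, Gp93, had 1 each. Among chaperones 3 of 31 had one, 9.68% (3.35% to 24.9%): Gp93 again, CCT1 of the chaperonin ring and Hsc70-4, the main cytosolic Hsp70, with a peak of 64 nt. Cytoskeleton and motor genes gave 3 of 19, 15.8% (5.52% to 37.6%), with peaks in the giant nesprin Msp300, whose CDS of 40620 nt is the longest among the S2 chromatin genes, in alpha-Cat (alpha-catenin, of adherens junctions) and in kst (beta-heavy spectrin). Their peaks were 1.72% of the CDS peaks of S2 chromatin, and the genes of the list hold 0.796% of the CDS bases. The part of CDS length in this share was not tested.

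Lists of nuclear functions were as follows. hnRNP and splicing regulators had 2 of 23 genes with a CDS peak in S2 chromatin, 8.70% (2.42% to 26.8%): Hrb98DE, an hnRNP A protein, and msi (musashi). In Kc chromatin the list had Rm62, a DEAD-box helicase. In transcription genes 2 of 53 had one, Polr2L and the TFIID subunit Taf11, among chromatin, GAGA-site and insulator genes 1 of 32, the insulator protein Cp190, and among replication and mitosis genes 1 of 24, the cohesin subunit vtd. The dosage compensation list had 0 of 7, the core spliceosome 0 of 21, nuclear pore and transport genes 0 of 21 and histone genes, most of them near-identical cluster copies, 0 of 114. The pore and transport list leaves out the importin Karybeta3, with a peak of 36 nt, and the pore membrane proteins Gp210 and Ndc1, with 38 nt each. All these lists are selections, so other genes of the same roles may be left out too. Apart from the hnRNP and splicing regulators, the interval of each of these lists holds the 1.38% of all genes; for 1 of 24 it runs from 0.739% to 20.2%.

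Of metabolic and degradation genes, 2 of 75 oxidative phosphorylation genes (COX7A and ND-SGDH; 2.67%, 0.734% to 9.21%) and 2 of 42 proteasome genes (Rpn9 and Rpt2; 4.76%, 1.32% to 15.8%) had a CDS peak. Both intervals, unadjusted as above, hold the 1.38%. V-ATPase subunits gave 0 of 31 and glycolysis 0 of 10. Neuron and muscle markers gave 0 of 4 each, in S2 chromatin and in the other lists.

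**Figure D4:**
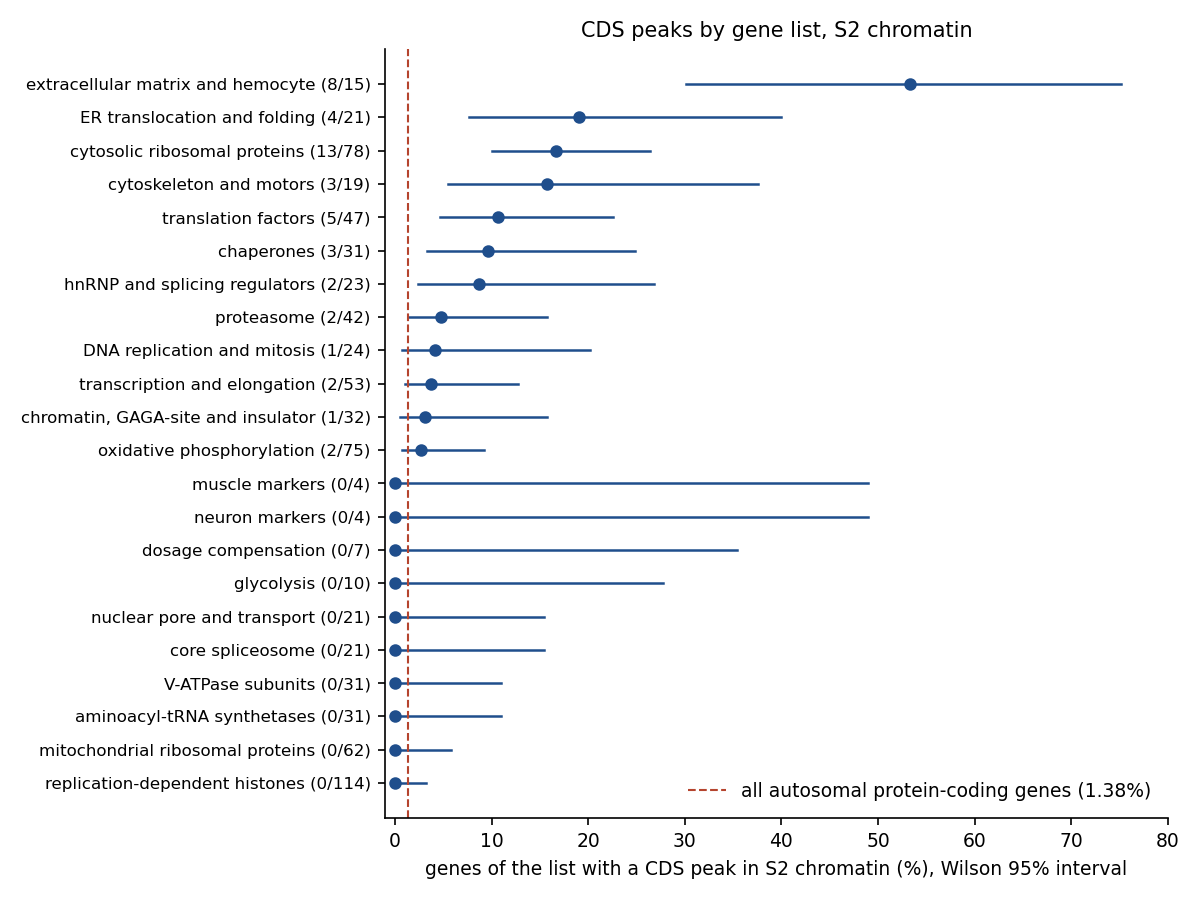
Share of the genes of each list (%) that had a CDS peak in S2 chromatin, with Wilson 95% intervals; the counts stand beside each name. The dashed line is the 1.38% of all autosomal protein-coding genes, and the extracellular matrix and hemocyte list lies highest at 53.3%. The lists were chosen with earlier results of these data known, which the intervals do not allow for.

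The UTR peaks of S2 chromatin give the same lists another reading. They lay in 139 genes, 1.18% of the autosomal protein-coding genes, and 14 of these had a CDS peak too. The matrix and hemocyte list had UTR peaks in 4 genes (LanB1, LanB2, Tig and vkg), all of which had CDS peaks. Ribosomal protein genes had UTR peaks in 7, of which RpL8 and RpLP2 had CDS peaks. V-ATPase subunits had CDS peaks in 0 genes and UTR peaks in 3 (Vha16-1, Vha26 and VhaAC45), and hnRNP and splicing regulators had CDS peaks in 2 and UTR peaks in 5. No test was made between the classes.

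Of the 162 S2 chromatin genes, 150 had 1 CDS peak and 12 had 2, and no gene had more. The pairs were 127 to 11208 nt apart along the coding sequence, with a median of 618.5 nt. RpL4 had the closest pair, at CDS positions 246 and 373 of 1203 nt and both 24 nt wide, in the same coding exon. RpL3 was next, with peaks of 30 and 54 nt 190 nt apart in its last coding exon. The farthest pair was in Cdep, which codes for a FERM-domain protein, with a 22 nt peak at 2.95% and a 61 nt peak at 90.4% of its CDS of 12819 nt.

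Among the laminin genes the pairs were far apart as well. LanA had peaks of 30 and 32 nt at 7.76% and 30.9% of its CDS, LanB1 peaks of 26 and 28 nt at 9.34% and 85.3%, and LanB2 peaks of 23 and 29 nt at 3.42% and 63.2%. Each of the 3 genes thus had a peak in the first 10% of its coding sequence. Fer2LCH and CaBP1 had a peak at 92.7% and at 93.5% of the CDS, and eEF1alpha1, whose CDS is in 1 exon, at 2.81% and 51.0%. In Mvl, a manganese and iron transporter, the peaks were 58 and 22 nt wide, at 42.7% and 79.8%. In RpS7 and RpL5 the peak nearer the stop codon was the wider of the pair, 113 against 64 nt in RpS7 and 70 against 23 nt in RpL5.

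**Figure D5:**
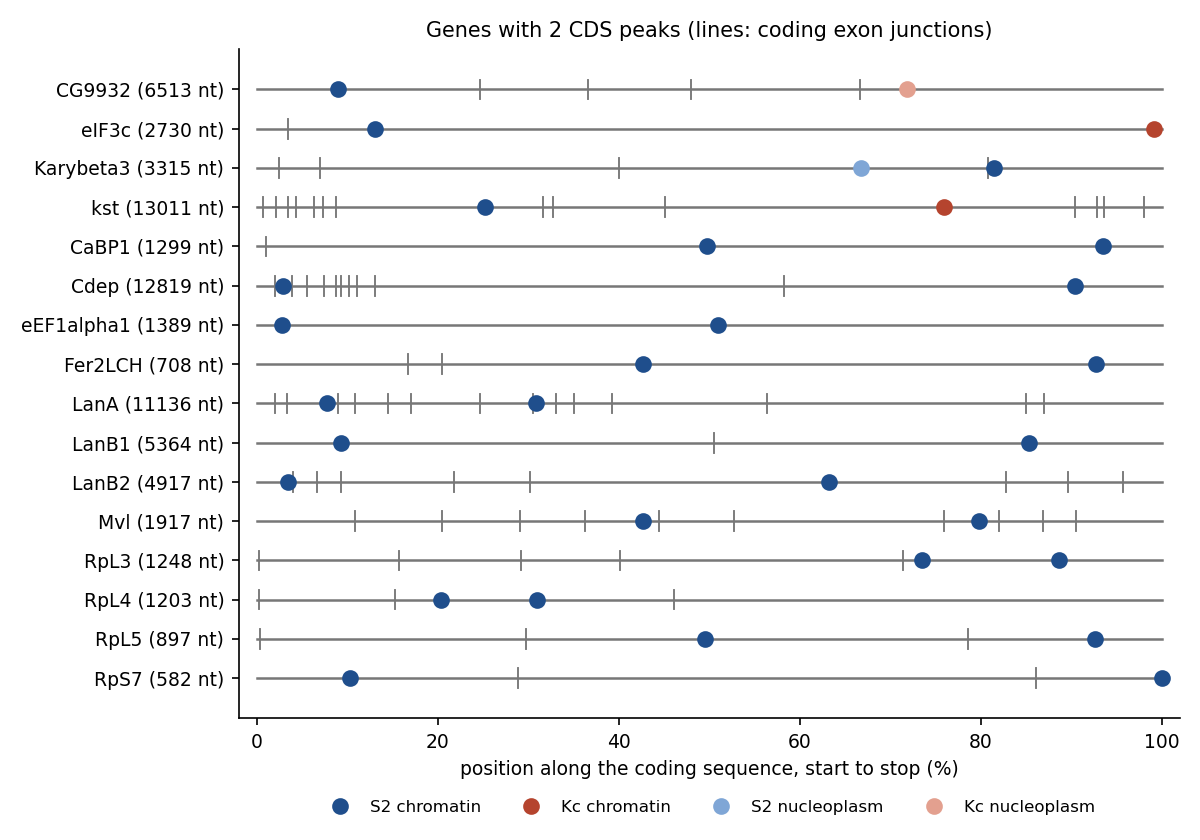
Peaks along the coding sequence, from start to stop codon (%), of the 4 genes with a CDS peak in 2 lists (top) and the 12 genes with 2 CDS peaks in S2 chromatin. Points are peak midpoints coloured by list, short vertical lines are coding exon junctions and CDS lengths stand beside the names; no gene has peaks of different lists at the same place.

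No CDS peak overlapped a peak of another list. How often peaks of other classes overlap between lists is not given here, so this cannot be read as a trait of CDS peaks. Of 196 genes, 4 had CDS peaks in 2 lists, and none in 3. eIF3c and kst had them in both chromatin lists, 2 of 162 genes of S2 chromatin and 2 of 16 of Kc chromatin, or 12.5% of the Kc genes (3.498% to 36.0%) beside the 1.38% of all autosomal protein-coding genes with a CDS peak in S2 chromatin. In eIF3c the peak was at 13.1% of the CDS in S2 chromatin (2R 17666474 to 17666496, 23 nt) and at 99.2% in Kc chromatin (2R 17668812 to 17668858, 47 nt), 2350 nt apart. In kst it was at 25.2% in S2 chromatin (3L 3357081 to 3357104, 24 nt) and at 75.9% in Kc chromatin (3L 3363848 to 3363888, 41 nt), 6597 nt apart. All 4 positions lie in coding sequence of each gene's longest coding transcript.

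Karybeta3, an importin of the karyopherin beta family, had peaks in both S2 lists. They were at 81.5% of the CDS in chromatin (3R 4653455 to 4653490, 36 nt) and at 66.8% in nucleoplasm (3R 4652854 to 4652884, 31 nt), 488 nt apart and in different coding exons. CG9932 had a peak of 57 nt at 8.997% of its CDS in S2 chromatin and one of 40 nt at 71.9% in Kc nucleoplasm. The 2 Kc lists shared 0 genes with CDS peaks, and the 2 nucleoplasm lists 0. Genes with a CDS peak were 0.136% of all in Kc chromatin, 0.162% in Kc nucleoplasm and 0.0255% in S2 nucleoplasm. These are too few to read a lack of overlap from. Only the peak of RpL41 in Kc nucleoplasm, in a coding sequence of 75 nt, lay within 100 nt of a peak of another list, a 3′ UTR peak of the same gene in S2 chromatin.

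Of all autosomal protein-coding genes, 368 had a peak of any kind in S2 chromatin, or 3.13%. Of the 16 Kc chromatin genes with a CDS peak, 4 had one, or 25% (10.2% to 49.5%): eIF3c and kst in CDS, and InR, the insulin receptor, and zfh1, a zinc-finger homeodomain transcription factor, with 2 peaks each in the 3′ UTR. The widest CDS peak of the list was an 84 nt peak in CG6912, at 3R 15136211 to 15136294. It was followed by 63 nt in Mtch, a mitochondrial carrier homologue, 56 nt in Desat1, a fatty acid desaturase, and 50 nt in Rm62. Peaks of 41 to 47 nt were in mld (molting defective), which acts in ecdysone synthesis, in CG42694, in kst and eIF3c, in RpS18 and in grk (gurken), the ligand that activates the epidermal growth factor receptor from the oocyte. The narrowest, of 30 nt, was in Trpm, a cation channel, and was chosen here after its value was seen.

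Of the 19 genes with CDS peaks in Kc nucleoplasm, 2 were on a gene list, RpL41 and eIF3b. The widest were in Cam (calmodulin, the calcium sensor), with 49 nt, Larp4B, a La-related RNA-binding protein, with 46 nt, and vig2, a chromatin and RNA-binding protein, with 43 nt. CG9932 followed with 40 nt, KrT95D with 38 nt, Syx1A (syntaxin, of vesicle fusion) with 37 nt and RhoGAP100F with 36 nt. sty (sprouty, an inhibitor of receptor tyrosine kinase signalling) had 35 nt, strat 33 nt, SERCA (the calcium pump of the ER) 32 nt, Nipped-A (a large scaffold of histone acetyltransferase complexes) 30 nt and tsh (teashirt, a zinc-finger factor) 29 nt. Of the 19 genes, 4 had a peak of any kind in S2 chromatin, or 21.1% (8.51% to 43.3%), beside the 3.13% of all genes: CG9932 in CDS, Xrp1 in the 5′ UTR, RpL41 with 2 in the 3′ UTR and sty with 1 in the 3′ UTR and 2 in introns or other parts.

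S2 nucleoplasm had 3: RhoBTB with 36 nt, Karybeta3 with 31 nt and CG1317 with 29 nt. CG1317 also had a 5′ UTR peak in S2 chromatin. With 3 peaks, this list carries no pattern by itself.

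In S2 chromatin 14 of 162 genes with a CDS peak also had a UTR peak in the list, or 8.64% (5.22% to 14.0%), beside 1.18% of all autosomal protein-coding genes. Of the 14, 8 had it in the 3′ UTR, and 2 of the 162 had a peak in an intron or other part of the gene. Shares of all genes for these 2 counts are not given here, so neither is read as a result. larp, which codes for a La-related RNA-binding protein and is named after its values were seen, had a CDS peak and a peak in each UTR in S2 chromatin, and a further 3′ UTR peak in Kc chromatin. The others were Csk, Hrb98DE, Lamp1, LanB2, Tig, lace and vkg with the 3′ UTR, and Gp150, LanB1, RpL8, RpLP2, kek1 and spin with the 5′ UTR. In the other 3 lists no gene with a CDS peak had a UTR or intron peak in the same list. Of all genes, 0.187% had a UTR peak in Kc chromatin, 0.0426% in S2 nucleoplasm and 0.179% in Kc nucleoplasm. With 16, 3 and 19 genes with a CDS peak, these lists are too short to be set against S2 chromatin.

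Genes with CDS peaks had long coding sequences. The median was 1941 nt in S2 chromatin, 1846.5 nt in Kc chromatin, 2964 nt in S2 nucleoplasm and 2004 nt in Kc nucleoplasm, and 1167 nt over all autosomal protein-coding genes. A coding sequence in a single exon was found in 4.94% of S2 chromatin genes and 5.26% of Kc nucleoplasm genes, and in 20.8% of all. A longer CDS gives more room for a peak, and this was not corrected for. By arm, S2 chromatin had 41 CDS peaks on 2L, 36 on 2R, 32 on 3L, 62 on 3R and 3 on chromosome 4, and 3R held 35.6% of the peaks and 29.0% of the CDS bases. In 7 of 174 S2 chromatin peaks a gene on the opposite strand also covered the midpoint, so only the strand of the peak assigns them.

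Beside the 212 autosomal CDS peaks the X chromosome had 44, of which 36 were in S2 chromatin. Near a junction were 14 of 165 autosomal peaks, 8.48% beside a mean of 13.4% of bases. On the X it was 0 of 33 peaks, where the Wilson interval reaches 10.4%, beside a mean of 10.8% of bases. The first, middle and last part of the CDS held 58 peaks each on the autosomes, and 9, 12 and 15 on the X. Past the stop codon ran 8 of 174 autosomal peaks and 0 of 36 X-linked peaks. Between autosomes and X no test was made.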

How the data were processed

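Per the labels' protocols, cells were crosslinked at 254 nm, barcodes of 4 nt were used, libraries had 31 PCR cycles, and a Galaxy CLIP workflow did the steps up to peak calling. The submitters' processing notes name UMI-tools, cutadapt 3.5, FastQC, STAR 2.5.2b-2 and build dm6. The sources used here give neither the peak caller and its threshold nor the libraries behind each list. In Kc chromatin, the library made without antibody is labelled with both its own list and the Kc nucleoplasm list, and its part in comparing them was not tested. Peak files of the authors hold start, end, strand and a score, which was 0 in every peak and was not used.

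Midpoints were placed on Ensembl release 115 (Python 3.11.15, numpy 2.4.6, scipy 1.17.1, matplotlib 3.10.9), in the transcript with the longest CDS holding them, with 1-based dm6 coordinates. Shares have Wilson 95% intervals, odds ratios and their Woolf intervals have 0.5 added to each count, and two-sided Fisher's exact tests were adjusted by Benjamini-Hochberg over the 13 tests run. Of 17 planned tests, 4 on encoded protein or peak sequence were not run, since no genome or protein sequence was used here, and for the same reason no sequence is printed. The test code was checked on simulated data. P-values compare lists over peaks, not repeated experiments.

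Named genes were those with CDS peaks in 2 lists, with 2 CDS peaks in a list, all of S2 nucleoplasm, up to 12 widest of each Kc list, the 10 widest of S2 chromatin and up to 4 of each gene list, 66 genes in all. Others are named to complete a count. The members, gene lists and rule were chosen with earlier results of these data known.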

Additional observations from a re-analysis of the deposited data

Results flagged for a closer look

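The share of CDS peaks among mRNA exon peaks lay on opposite sides in the 2 lines when chromatin was set against nucleoplasm. Chromatin over nucleoplasm gave an odds ratio of 1.70 in S2 cells (chromatin 174 of 335, nucleoplasm 3 of 8) and 0.631 in Kc cells (chromatin 16 of 43, nucleoplasm 19 of 39). Neither ratio passed its own exact test, and the difference between the lines was not tested. The S2 nucleoplasm value rests on 8 peaks.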

How the results depend on the processing

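Each of the 13 tests was repeated under up to 8 other settings, which gave 101 values. Of these, 1 lost its call, 1 gained one and 8 turned to the other side of an odds ratio of 1. All 8 turns were in comparisons that passed no test. With peaks of at least 30 nt only, the CDS share of S2 over Kc nucleoplasm had an odds ratio of 1.81, that of S2 chromatin over S2 nucleoplasm 0.813, and the first part of the CDS in S2 over Kc chromatin 0.934. With strand ignored, S2 over Kc chromatin gave 0.903 for the first part of the CDS, 0.747 for the first coding exon and 1.09 for peaks near a junction. With 1 peak a gene and class, the first 2 of these were 0.966 and 0.986. All these ratios have 0.5 added to each count. From the counts as they are, 3 of the 8 do not turn: near a junction is 1.39 in the main setting and 1.54 with strand ignored, and with 1 peak a gene and class the ratios are 1.01 for the first part of the CDS and 1.38 for the first coding exon. In the other direction, near a junction turns to 0.571 from the counts as they are with chromosome X added. With chromosome X added, the width of S2 over Kc chromatin CDS peaks had an odds ratio of 0.157 and an adjusted p of 0.0535. With CDS taken before 5′ UTR, the width of CDS over UTR peaks in S2 chromatin gave 1.81 and an adjusted p of 0.0449. The cause of these changes was not tested. The setting of at least 30 nt gives no value for the tests of width, and the alternative of peaks with a sequence found once in the genome was not run. No paired analysis was possible because each list analysed stands for 1 line and fraction and has no replicates. The lists give no counts, so depth limits every statement that a peak is missing.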

Other observations

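Of the 162 S2 chromatin genes with a CDS peak, most were on none of the gene lists, and the following were chosen after their values were seen, with no theme tested. Several code for proteins of chromatin: NSD, a histone methyltransferase, had a peak of 60 nt, gpp, the fly Dot1 methyltransferase, 30 nt, Kdm5, a histone demethylase, 42 nt, and kis, a chromodomain helicase, 29 nt. Sfmbt, a Polycomb group protein, had 64 nt and Su(var)2-HP2, a partner of heterochromatin protein HP1, 38 nt. The fixed list of chromatin, GAGA-site and insulator genes had 1 of 32.

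Others code for proteins that handle mRNA. Capr (caprin) had a peak of 60 nt, Not1, the scaffold of the CCR4-NOT deadenylase, 30 nt, the helicase Dhx15 25 nt and tral (trailer hitch), a translational repressor, 25 nt. Genes of lipid and membrane metabolism were FASN1, a fatty acid synthase, with 36 nt, SREBP, the transcription factor of lipid synthesis, with 33 nt, and lace, a subunit of serine palmitoyltransferase, with 32 nt. Dg (dystroglycan), a laminin receptor, had a peak of 23 nt at position 3635 of its coding sequence of 3786 nt.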
